A study of Mus musculus with 6 samples.

Results

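Chromatin remodeler genes were defined by symbol: the protein-coding genes of the RefSeq annotation of mouse assembly GRCm38 whose symbols start with Smarca, Smarcb, Smarcc, Smarcd, Smarce, Arid or Chd followed by a number. The rule found 31 of 21900 protein-coding genes. Overlapping peaks of 3 ATAC-seq peak lists, with 1 bp in common or more, were joined into regions, and 313 of 81315 regions overlapped a member gene with 10 kb on each side. Of the 31 genes, 30 had at least 1 region, and no region was assigned to 2 members.

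ATAC-seq marks open DNA by letting the Tn5 transposase cut and tag it, and was applied to CD4 T cells from C57BL/6 mice. One condition is untreated naive cells. In the others, naive cells had been cultured as Th17 cells for 48 h or 72 h with 0.25 μg/mL anti-CD3ε and 1 μg/mL anti-CD28, in place of antigen and its co-signal, plus 0.1 ng/mL TGF-β and 20 ng/mL IL-6. The design has 2 libraries and the files 1 peak list for each of the 3 conditions, so no difference has a replicate check, no p-value is given, and both comparisons with naive cells share the naive list.

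Chromatin remodelers use the energy of ATP to slide, space or evict nucleosomes. SWI/SNF complexes combine an ATPase, Smarca2 (BRM) or Smarca4 (BRG1), with core subunits and an ARID subunit that binds DNA. ISWI ATPases space nucleosomes, and CHD proteins, apart from Chd1l, join a chromodomain, which reads histone tails, to the same kind of motor. In T cells, SWI/SNF and the CHD4-containing NuRD complex are known for their parts in thymic development and in the response to activation. The symbol rule also takes in 7 ARID genes not counted here as SWI/SNF subunits, Arid3a, Arid3b, Arid3c, Arid4a, Arid4b, Arid5a and Arid5b. They hold 80 of the 313 regions. The data here are accessible regions at the member genes, and give no measure of the RNA, protein or activity of their products.

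A region counted as present wherever a list had a peak in it. Gained regions had a peak in the later list alone of the pair compared, and lost regions in the earlier alone. A peak that is missing from a list did not pass the authors' calling, which does not show closed chromatin. The annotated start of a gene came from the RefSeq promoter table of GRCm38.p6, which held 23 of the 31 members. For Arid2, Arid3a, Arid4a, Chd1, Chd2, Chd3, Chd7 and Smarce1, either end of the gene was used in its place. The start window reached 1 kb to each side. All coordinates are 1-based on GRCm38/mm10.

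The sequences before an annotated start of 8 members show the range of starts behind the results. In each, the 250 bases before an annotated start are printed 5′ to 3′ on the gene's strand, from the RefSeq table of GRCm38.p6. Capitals mark exact matches on either strand to the GC box GGGCGG, the CCAAT box CCAAT and the ETS core CCGGAAG. The first 4 belong to the members with the widest start-window regions in all 3 lists among those in the promoter table. They are Arid1b (chr17:4994824-4995073, plus strand), Smarcc2 (chr10:128458986-128459235, plus), Chd6 (chr2:161109087-161109336, minus) and Arid4b (chr13:14063534-14063783, plus).
Arid1b: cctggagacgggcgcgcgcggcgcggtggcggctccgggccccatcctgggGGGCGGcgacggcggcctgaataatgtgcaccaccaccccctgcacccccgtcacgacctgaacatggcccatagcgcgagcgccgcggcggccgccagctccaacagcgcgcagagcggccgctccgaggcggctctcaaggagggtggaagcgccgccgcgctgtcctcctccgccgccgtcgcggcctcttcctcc
Smarcc2: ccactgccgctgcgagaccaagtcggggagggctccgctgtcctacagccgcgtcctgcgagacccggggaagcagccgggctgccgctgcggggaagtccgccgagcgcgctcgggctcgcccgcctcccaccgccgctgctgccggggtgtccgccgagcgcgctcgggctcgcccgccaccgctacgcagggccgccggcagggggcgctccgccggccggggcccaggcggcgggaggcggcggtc
Chd6: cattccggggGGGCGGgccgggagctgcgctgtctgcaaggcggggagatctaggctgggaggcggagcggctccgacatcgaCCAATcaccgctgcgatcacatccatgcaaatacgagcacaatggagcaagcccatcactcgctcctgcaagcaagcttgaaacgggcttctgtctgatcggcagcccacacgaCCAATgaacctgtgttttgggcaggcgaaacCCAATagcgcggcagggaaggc
Arid4b: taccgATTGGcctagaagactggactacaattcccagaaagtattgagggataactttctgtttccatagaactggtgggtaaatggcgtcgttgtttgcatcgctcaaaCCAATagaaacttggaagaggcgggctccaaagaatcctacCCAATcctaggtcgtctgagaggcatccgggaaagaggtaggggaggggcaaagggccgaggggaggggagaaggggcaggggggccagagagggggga
The next 3 are the annotated starts whose windows held a peak in some lists and not in others: Arid3c (chr4:41731143-41731392, minus), Arid5b (chr10:68278727-68278976, minus) and Smarcd3 (chr5:24602003-24602252, minus).
Arid3c: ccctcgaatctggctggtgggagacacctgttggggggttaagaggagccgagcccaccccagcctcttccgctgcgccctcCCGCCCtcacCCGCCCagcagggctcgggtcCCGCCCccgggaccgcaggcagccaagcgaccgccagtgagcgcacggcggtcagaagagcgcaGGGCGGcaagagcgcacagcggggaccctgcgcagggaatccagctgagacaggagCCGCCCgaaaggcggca
Arid5b: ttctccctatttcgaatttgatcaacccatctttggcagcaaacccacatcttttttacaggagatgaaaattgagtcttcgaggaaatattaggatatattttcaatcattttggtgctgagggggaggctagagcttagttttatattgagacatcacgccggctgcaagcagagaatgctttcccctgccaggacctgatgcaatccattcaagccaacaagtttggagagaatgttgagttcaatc
Smarcd3: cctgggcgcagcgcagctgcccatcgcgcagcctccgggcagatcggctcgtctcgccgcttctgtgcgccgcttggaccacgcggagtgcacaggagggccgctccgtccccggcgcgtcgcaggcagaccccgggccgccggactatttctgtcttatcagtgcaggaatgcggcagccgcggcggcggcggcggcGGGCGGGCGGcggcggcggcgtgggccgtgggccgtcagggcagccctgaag
Chd5 (chr4:152338401-152338650, plus), chosen after its values were seen, had no peak within 1 kb of its annotated starts in any list.
Chd5: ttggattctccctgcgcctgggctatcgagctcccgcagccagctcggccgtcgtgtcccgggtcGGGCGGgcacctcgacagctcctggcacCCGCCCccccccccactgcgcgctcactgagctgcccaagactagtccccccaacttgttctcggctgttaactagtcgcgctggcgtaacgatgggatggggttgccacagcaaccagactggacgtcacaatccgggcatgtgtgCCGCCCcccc
The stretches of Arid1b, Arid5b and Smarcd3 lie wholly inside the gene body, before an annotated start that is not its outer end. The 8 stretches differed widely in composition. The 300-base promoter window, which adds 50 bases past the start, held 48 CG dinucleotides at Smarcc2, 42 at Arid1b and 40 at Smarcd3, but 14 at Arid4b and 7 at Arid5b. Chd5 held 32, more than Chd6 with 20. The 250 bases shown held 3 CCAAT boxes each at Chd6 and Arid4b and none of the motifs in capitals at Arid5b or Smarcc2.

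Most members had a peak at their start in every condition. A start-window peak was present at 28 members in naive cells (90.3%), 25 at 48 h (80.6%) and 27 at 72 h (87.1%). Over all protein-coding genes the shares were 54.3%, 54% and 57.6%, with either gene end used in the same way where no start was given. Of the 23 members with an annotated start, 20 had such a peak in naive cells, 17 at 48 h and 19 at 72 h. The 8 members placed by either gene end had one in every list. The members without one in naive cells were Chd5, Smarca1 and Smarcd2. Arid3c, Arid5b and Smarcd3 joined them at 48 h, and Arid5b also lacked one at 72 h. The annotated Arid5b start lies inside the gene body. A region 683 bp beyond the gene's outer end, outside the start window, had 155 peak bases in naive cells and 133 at 72 h. Smarca1, which encodes the ISWI ATPase SNF2L, had no region at all in any list, as did 24.1% of protein-coding genes. Smarcd2, a core subunit gene, had no peak within 1 kb of its annotated start, yet a region of 933 bp at the outer end of the same gene (chromosome 11, 106272355 to 106273287) was present in all 3 lists.

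Across the 28 promoter windows of the 23 members, 20 had a peak within 1 kb in all 3 lists, 3 in some lists and 5 in none. The 5 were the pair of Chd5 starts, which lie 3 bases apart, the inner start of Chd9, Smarca1 and the annotated start of Smarcd2. Windows with a peak in all 3 lists held a median of 26.5 CG dinucleotides (14 to 48), and those without a peak 9 (1 to 33). Over all 21263 promoter windows of protein-coding genes the medians were 22 and 3. The Chd5 windows, with 32 and 33, lay above the median of the members with a peak. The GC box GGGCGG was found in 23 of the 28 windows (82.1%), in 46.2% of all windows and in 68.6% of all windows with a peak in all 3 lists. The NRF1 core GCATGCG was found in 4 windows, those of Smarca4, Smarca5, Smarcb1 and Smarcc1, and in 4.44% of all windows. The CCAAT box was found in 8 (28.6%, against 38.2% of all windows), the ETS core CCGGAAG in 4 (14.3% against 11.6%), the YY1 core AAGATGG in 3 (10.7% against 6.24%), and the TATA box TATAAA (12.6% of all), the AP-1 site TGANTCA (6.99%) and the cAMP response element core TGACGTC (3.84%) in 2 each. Of all windows with a peak in all 3 lists, 20.5% held the ETS core, 7.18% the NRF1 core and 38.75% the CCAAT box. The YY1 core was in 7.44% of these windows, the TATA box in 5.93%, the AP-1 site in 4.03% and the cAMP response element core in 6.01%. All motifs were searched on both strands, and a match describes the letters of the window only. Windows of the same gene overlap where its starts lie close, so they are not independent.

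The regions away from the starts held most of the differences between conditions. By position, 41 of the 313 regions lay in a start window, 211 elsewhere inside a member gene and 61 in the 10 kb flanks. Of the start-window regions, 29 (70.7%, exact Clopper-Pearson 95% interval 54.5 to 83.9%) were present in all 3 lists, against 43 of 211 inside the genes (20.4%, 15.2 to 26.4%). At all protein-coding genes these shares were 62% and 14.7%. No start-window region was confined to 72 h or to the 48 h and 72 h lists, which allows up to 8.6% of the 41 by the same interval. Over all genes 8.12% and 5.81% of start-window regions were of these kinds. In the flanks, 23 of 61 regions (37.7%, 25.6 to 51%) were in all 3 lists, against 20% at all genes, and 19 of the 61 lay within 1 kb of the annotated start of another protein-coding gene. Member regions were placed by the member gene alone, while the all-gene shares count each region once across neighbouring genes. These flank shares are therefore not like for like, and no conclusion is drawn from their difference. Such intervals cover counting error only.

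**Figure D1:**
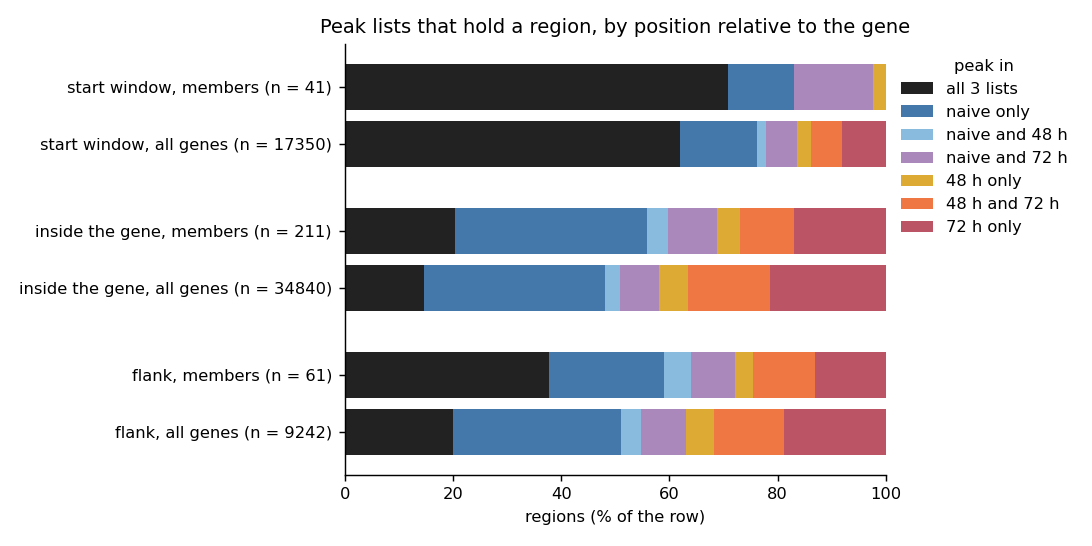
Regions by the peak lists that hold them (% of each row), in start windows, inside the genes and in the 10 kb flanks, for the chromatin remodeler genes and for all protein-coding genes. Member regions are placed by the member gene alone, and all-gene rows count each region once across neighbouring genes, so the flank rows are not like for like. Regions in all 3 lists fill 70.7% of the members' start-window row and 20.4% of the row inside the genes, and no start-window region of a member was in the 48 h and 72 h lists without the naive list or in the 72 h list alone.

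Of the 313 regions, 95 (30.4%, 25.3 to 35.8%) were in all 3 lists and 93 (29.7%, 24.7 to 35.1%) in the naive list only. These classes held 25.6% and 28.8% of all regions, and 28.9% and 27.6% of the regions within 10 kb of any protein-coding gene. Regions with peaks at both Th17 times and none in naive cells numbered 28 (8.95%, 6.03 to 12.7%), against 13.1% of all regions and 12.2% near genes. Another 44 had a peak in the 72 h list alone (14.1%, 10.4 to 18.4%), against 18.3% and 17.3%. Regions that lacked a peak only at 48 h numbered 30 (9.58%, 6.56 to 13.4%), against 6.86% of both sets. The 48 h list alone held 12 (3.83%, against 4.73% and 4.53%), and 11 lacked a peak only at 72 h (3.51%, against 2.57% and 2.63%). The difference between members and other genes was not tested.

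The number of regions followed the size of the gene. Arid1b, of 353 kb, held 48 regions, while Arid3c, of 7.31 kb, held 8. Across the 31 members, gene length and number of regions had a Pearson r of 0.852 and a Spearman rho of 0.696, given as a description over genes that share the same 3 lists. Per 100 kb of gene with flanks the members had a median of 9.15 regions, against 7.84 over all genes with a region. Arid3c had the most, 29.3, and 4 of its 8 regions lay in the flank within 1 kb of the start of Rpp25l or Dctn3.

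**Figure D2:**
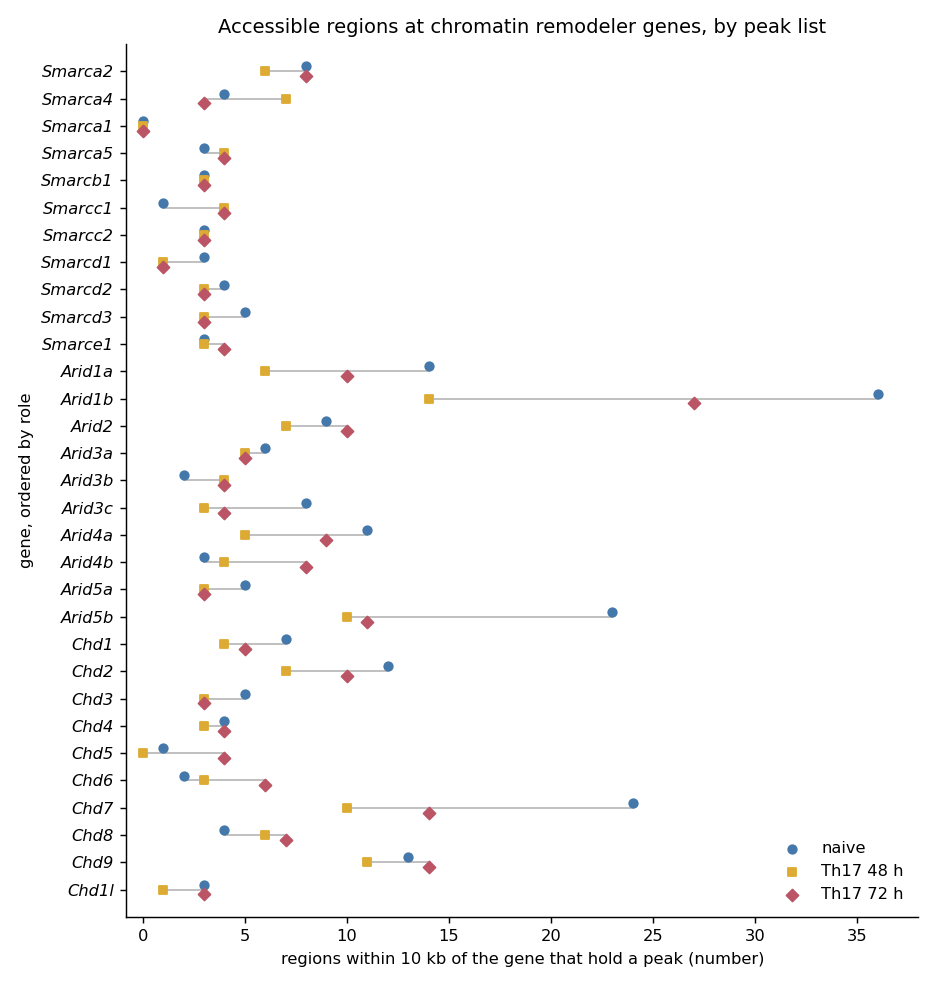
Number of regions within 10 kb of each chromatin remodeler gene (x axis) that hold a peak in the naive, Th17 48 h and Th17 72 h lists (circles, squares and diamonds), with genes ordered by role. Arid1b, Chd7, Arid5b and Arid1a had fewer regions at 48 h than in naive cells, with 36 and 14, 24 and 10, 23 and 10, and 14 and 6, while Smarcc2 had 3 in each list.

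The first comparison, of naive cells with 48 h, had more losses than gains at the member genes. Regions at the members numbered 229 in naive cells and 146 at 48 h, with 40 gained, 123 lost and 106 shared. Lost regions were 45.7% of those present in either list (39.7 to 51.9%), where all regions gave 43.7%, and gained regions 14.9% (10.8 to 19.7%), where all regions gave 21.9%. More regions were lost than gained at 20 of the 30 genes with a region (66.7%), against 49.1% of all such genes, and more were gained at 7 (23.3%), against 19.5%. The remaining 3 had equal numbers (10%, against 31.4%). The members are longer, with a median gene length of 59.89 kb against 21.95 kb over all genes with a region. The part of gene length in these per-gene shares, here and in the later comparisons, was not tested. The 7 were Arid3b, Arid4b, Chd6, Chd8, Smarca4, Smarca5 and Smarcc1. Arid1b, Arid5b, Chd7 and Arid1a together held 65 of the 123 lost regions. The 48 h list is the shortest. When every list was held to its 40624 widest peaks, called the equal-number setting from here on, 50 member regions were gained and 85 lost (63%, against 53.2% of changed regions over all regions). More were then lost at 14 members (46.7%, against 33.1% of genes with a region) and more gained at 11 (36.7%, against 29.7%), with the balance turned at Chd2, Chd3, Chd9 and Smarca2. When only peaks no narrower than the median of their list were kept, called the wide-peak setting, 19 regions were gained and 70 lost (78.7%, against 67% over all regions). More were lost at 20 members (66.7%, against 37.5%), and the balance turned at Arid3b, Arid4b, Arid5a, Chd6 and Smarca5.

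In the comparison of naive cells with 72 h, 72 regions were gained, 104 lost and 125 shared, with 197 regions at 72 h. Of those present in either list, 34.6% were lost (29.2 to 40.2%), with 33% over all regions, and 23.9% were gained (19.2 to 29.2%), also with 33% over all regions. Gained regions were thus 36.5% of the members' 72 h regions (29.8 to 43.7%), against 45.2% of the 72 h regions within 10 kb of any protein-coding gene. Lost outnumbered gained regions at 15 of 30 members (50%, against 36.6% of all genes with a region), gained outnumbered lost at 10 (33.3%, against 33.9%), and 5 had equal numbers (16.7%, against 29.4%). The 10 were Arid2, Arid3b, Arid4b, Chd5, Chd6, Chd8, Chd9, Smarca5, Smarcc1 and Smarce1. The equal-number setting gave 52 gained and 80 lost (60.6%, against 50.4% of changed regions over all regions). It turned the balance at Chd2 and Smarca4 and left equal numbers at Arid2, Arid3b and Chd3. In the wide-peak setting more were lost at 9 members (30%, against 25.5% of genes with a region) and more gained at 9 (30%, against 28.5%). That setting left equal numbers at 11 members with a balance before, among them Arid3b, Arid4b, Chd6, Chd9, Smarca5 and Smarce1.

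Between 48 h and 72 h, 74 member regions were gained, 23 were lost and 123 were shared. Gained regions were 33.6% of those in either list (27.4 to 40.3%), with 35.3% over all regions, and lost regions 10.5% (6.74 to 15.3%), with 10.3% over all regions. More were gained at 18 members (60%, against 48.8% of all genes with a region) and more were lost at 1 (3.33%, against 11.1%), Smarca4, with 11 equal (36.7%, against 40.1%). The count of 1 held for all deposited peaks. In the equal-number setting 42 regions were gained and 35 lost (45.5%, against 45.2% over all regions), and more were lost at 8 members (26.7%, against 24.2% of genes with a region). In the wide-peak setting 41 were gained and 9 lost (18%, against 21.1%), Smarca4 had 0 of each, and Arid5b was the member with more lost than gained, 2 to 1.

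**Figure D3:**
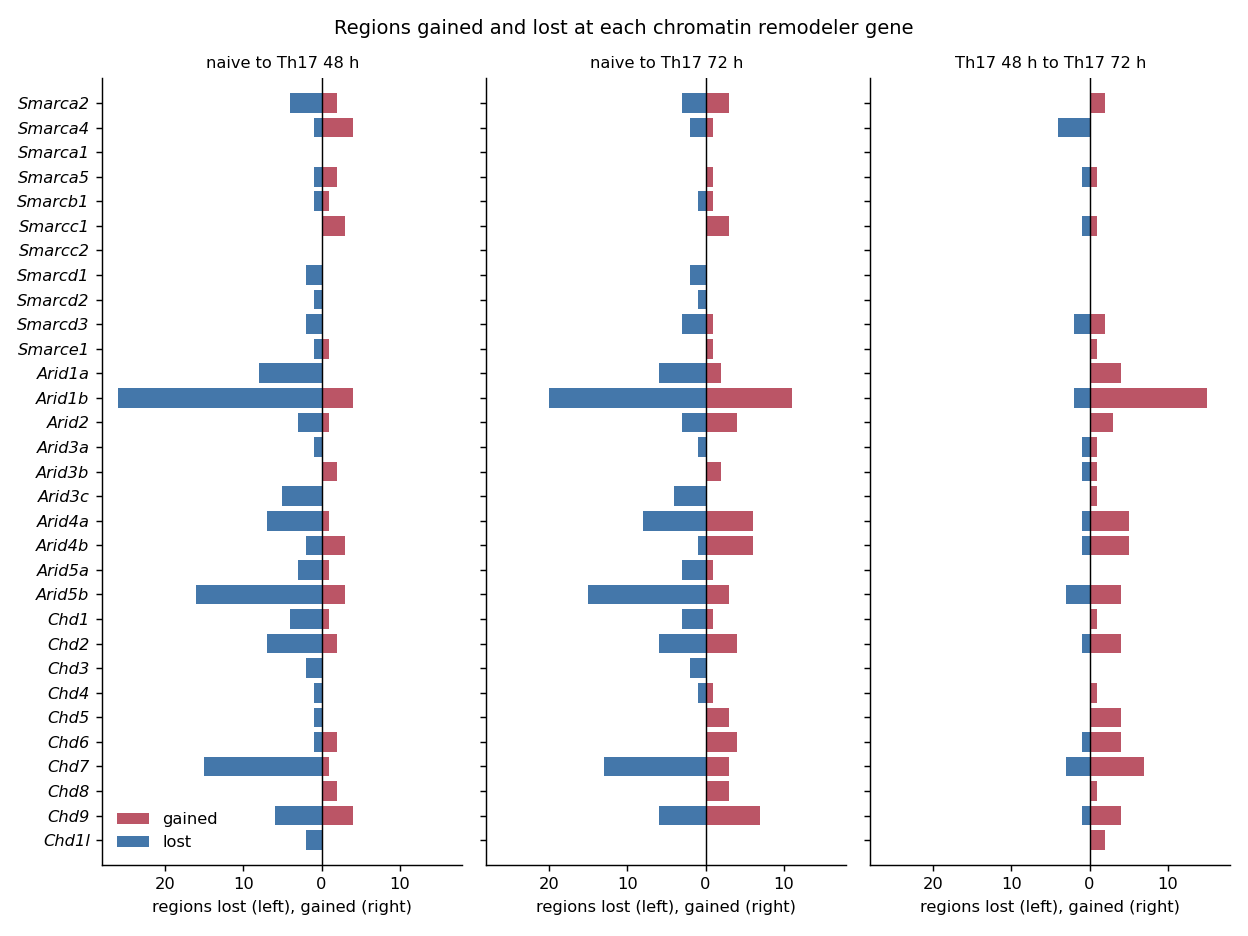
Regions gained (right of 0) and lost (left of 0) at each chromatin remodeler gene in the 3 comparisons, as numbers of regions. Arid1b, Arid5b and Chd7 had the longest bars to the left in both comparisons with naive cells, and with all deposited peaks, as plotted, Smarca4 was the only member with more lost than gained regions between 48 h and 72 h (8 members in the equal-number setting).

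Of the SWI/SNF ATPase genes, Smarca4 had 4 regions in naive cells, 7 at 48 h and 3 at 72 h. It had 2, 3 and 3 in the wide-peak setting, with no excess at 48 h over 72 h. The 1035 bp region over its start and a region in the flank, 5890 bp from the gene, were present in all 3 lists. Inside the gene, regions on chromosome 9 from 21679554 to 21679673, from 21686406 to 21686553 and from 21686877 to 21687085 were present at 48 h only, with deposited 48 h scores of 33, 49 and 48, in the lower part of a list with a median score of 69. The neighbouring region from 21679820 to 21680201 was present at 48 h and 72 h with scores of 176 and 99. A naive region of 331 bp from 21652275 was absent from both Th17 lists. Scores are the authors' own and are compared within 1 list only. In the equal-number setting Smarca4 had 2, 7 and 3 regions, with 6 gained and 1 lost at 48 h. From naive cells to 72 h its balance turned, from 1 gained and 2 lost to 2 gained and 1 lost.

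Smarca2, the other SWI/SNF ATPase, had 8, 6 and 8 regions. Its start region on chromosome 19, from 26604607 to 26605271, was in all 3 lists and had a score of 288 at 72 h, at or above 95.9% of that list's peaks. From naive cells to 72 h it gained 3 regions and lost 3, and to 48 h it gained 2 and lost 4. The equal-number setting turned the 48 h balance, to 3 gained and 2 lost, and gave 5 and 2 at 72 h, and the wide-peak setting gave 1 and 1, then 3 and 1. The ISWI ATPase gene Smarca5, which encodes SNF2H, had 3, 4 and 4 regions, or 3, 1 and 3 in the wide-peak setting, and 3 regions lay in its start window. The middle one, from 80738775 to 80739245 on chromosome 8, had no 48 h peak and covered 406 bp in naive cells and 471 bp at 72 h. Inside the gene, the region from 80732312 to 80732607 had peaks at 48 h and 72 h and none in naive cells.

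The 7 SWI/SNF core subunit genes together had 22 regions in naive cells, 20 at 48 h and 21 at 72 h, so their total differed little between lists. Smarcc2, a scaffold subunit, had the same 3 regions in all 3 lists, the widest over its start with 1195, 1350 and 1393 peak bases. Smarcb1, the SNF5 subunit lost in rhabdoid tumours, had 3 regions in each list, with 1 gained and 1 lost at each time. Smarcc1, the second scaffold subunit, went from 1 region to 4 and 4. Its start region (928 bp) was in all 3 lists, and a region of 1085 bp past the far end of the gene, on chromosome 9 from 110245316 to 110246400, was absent from naive cells and had 524 peak bases at 48 h and 1085 at 72 h. The Smarcc1 counts were the same in the equal-number setting. Smarcd1 went from 3 regions to 1 and 1, keeping its start region, and Smarcd2 from 4 to 3 and 3.

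Smarcd3, the subunit known from heart and muscle, had 5, 3 and 3 regions, and its start window differed between the lists. The region there, from 24602556 to 24602782 on chromosome 5, had 227 peak bases in naive cells, none at 48 h and 148 at 72 h with a score of 59. A pair of regions inside the gene lacked a peak only at 72 h. The equal-number setting left it 4, 3 and 1 regions. Smarce1 had 3, 3 and 4 regions. A region of 540 bp in its flank, on chromosome 11 from 99238322, was in all 3 lists with 540, 103 and 179 peak bases, and its 48 h ratio to naive cells, 0.191, was the lowest of the 95 member regions in all 3 lists.

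The genes of the ARID subunits of SWI/SNF had fewer regions at 48 h than in naive cells. Arid1a, Arid1b and Arid2 together had 59 regions in naive cells, 27 at 48 h and 47 at 72 h. From naive cells 37 were lost and 5 gained at 48 h, and 29 lost and 17 gained at 72 h. Arid1b alone held 36 of the 59 naive regions and 26 of the 37 lost at 48 h. Over all regions the lists held 51917, 37425 and 51941, and 66.6% and 50% of changed regions were lost at 48 h and 72 h. The 3 genes had 44, 26 and 38 regions in the equal-number setting and 27, 15 and 22 in the wide-peak setting. Arid1b, an alternative ARID subunit of the canonical complex, had 36, 14 and 27 regions. It gained 4 and lost 26 at 48 h, and gained 11 and lost 20 at 72 h. Of its 48 regions, 19 were in the naive list only and 9 in all 3 lists. Its start region, 2124 bp on chromosome 17 from 4993970 to 4996093, had 1883 peak bases in naive cells, 734 at 48 h and 1565 at 72 h. Th17 regions without a naive peak lay deep in the gene, at 5255457 to 5255837 (72 h score 219) and at 5327508 to 5327754 (score 192), 260573 and 332557 bp from the start. The equal-number counts were 27, 14 and 22, and losses still exceeded gains in both comparisons with naive cells, 18 to 5 and 14 to 9.

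Arid1a, whose product is the more common of the alternative subunits and a tumour suppressor, had 14, 6 and 10 regions. It gained 0 and lost 8 at 48 h, and gained 2 and lost 6 at 72 h. Both of its annotated starts had peaks in all 3 lists. The naive-only regions inside the gene beyond the start window were narrow, 120 to 189 bp. Arid2, the ARID subunit of the PBAF form, had 9, 7 and 10 regions, with 3 lost at each time and 1 and then 4 gained. The equal-number setting ended its 72 h balance, with 2 gained and 2 lost. The Arid2 region with the highest 72 h score, 281, lay in the flank on chromosome 15 from 96276756 to 96277570 and was in all 3 lists, and a region of 492 bp from 96377109 inside the gene was present at 72 h only.

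The 7 other ARID genes had 58, 34 and 44 regions, with 34 lost and 10 gained at 48 h and 32 lost and 18 gained at 72 h. Together they had 46, 34 and 29 regions in the equal-number setting and 36, 18 and 23 in the wide-peak setting. Arid5b, a cofactor of a histone demethylase, fell from 23 regions to 10 and 11, with 16 and 15 lost. Its widest naive-only regions, of 587 bp from 68240595 and 432 bp from 68105227 on chromosome 10, were among the 5 widest naive-only regions of all members. The region of 1114 bp inside the gene, 1776 bp from the annotated start, was in all 3 lists with 1114, 357 and 743 peak bases, while the 278 bp region in the start window was naive only. Held to equal numbers of peaks, Arid5b had 19, 10 and 6 regions. Arid5a, an RNA-binding ARID protein known for prolonging the life of inflammatory transcripts such as Il6, had 5, 3 and 3 regions. At both times it lost 3 regions within the gene and gained 1 in the flank, 692 bp from 36325731 on chromosome 1 with a 72 h score of 178, which was its highest. It gained 2 and lost 1 at both times in the wide-peak setting.

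Arid4a and Arid4b, which encode partners of the SIN3 histone deacetylase complex, differed in balance with all deposited peaks. Arid4a had 11, 5 and 9 regions, with 7 lost and 1 gained at 48 h and 8 lost and 6 gained at 72 h. Arid4b had 3, 4 and 8, with 2 lost and 3 gained at 48 h and 1 lost and 6 gained at 72 h. The equal-number counts were 7, 5 and 5 for Arid4a and 3, 4 and 5 for Arid4b. In the wide-peak setting Arid4b gained 0 and lost 1 at 48 h and gained and lost 1 at 72 h, and Arid4a gained 0 and lost 5, then gained 2 and lost 5. Each had a start region of 1304 bp in all 3 lists, and that of Arid4b also lay within 1 kb of the start of Ggps1. The Arid4b gains included 2 regions inside the gene, 95780 and 96648 bp from the start, at 72 h only. Arid3a, a factor first known from B cells, had 6, 5 and 5 regions, and Arid3b 2, 4 and 4, or 2, 4 and 2 in the equal-number and 2, 1 and 2 in the wide-peak setting. Arid3c had 8, 3 and 4 regions. The one over its start, from 41731002 to 41731478 on chromosome 4, had 477 peak bases in naive cells, none at 48 h and 257 at 72 h.

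**Figure D4:**
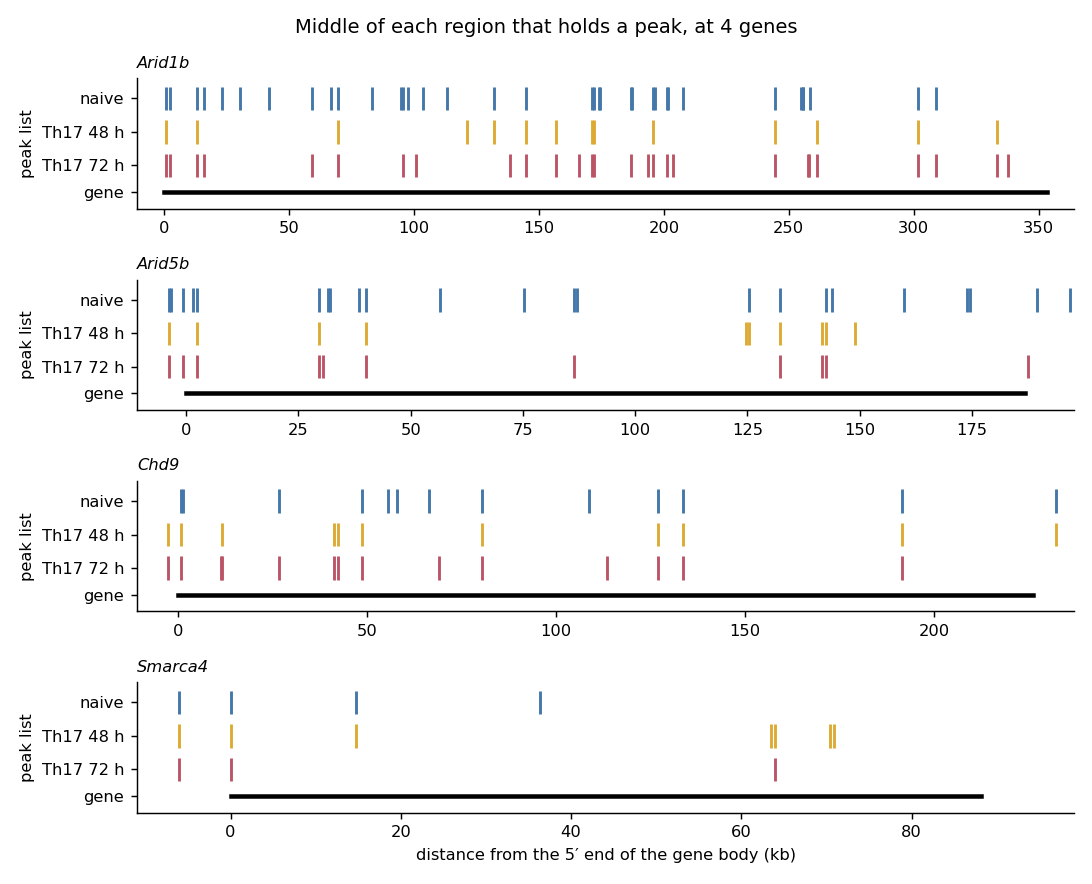
Middle of each region that holds a peak, in the naive, 48 h and 72 h lists (3 rows per gene), by distance from the 5′ end of the gene body (kb), at Arid1b, Arid5b, Chd9 and Smarca4. Arid1b had 36, 14 and 27 regions and Arid5b 23, 10 and 11, and 3 regions inside Smarca4 were present at 48 h only.

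Of the CHD genes, Chd7, mutated in CHARGE syndrome, had the most regions in naive cells, 24, with 10 at 48 h and 14 at 72 h. It lost 15 and 13 regions and gained 1 and 3. A region of 1379 bp at one end of the gene was in all 3 lists. A region of 509 bp from 8783257 on chromosome 4 was naive only, and the region from 8699466 to 8699636 was at 48 h only with a score of 89, the highest of the 12 member regions of that kind. Its equal-number counts were 23, 10 and 12. Chd9, of the same subfamily, had 13, 11 and 14, with 6 lost at each time and 4 and 7 gained. The equal-number setting gave more gained than lost at both times, 5 to 3 and 5 to 2, which turned the 48 h balance, and the wide-peak setting gave 3 and 3 at 72 h. Its region of 1713 bp inside the gene, on chromosome 8 from 90907764, was in all 3 lists, and a region from 90876373 to 90877678 widened from 607 peak bases in naive cells to 769 and 1279.

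Chd6 and Chd8 had start regions with high scores at 48 h and 72 h. The Chd6 start region, on chromosome 2 from 161108444 to 161109808, had a score of 489 at 72 h and 399 at 48 h, at or above 99.92% and 99.95% of the peaks of those lists, the highest of all member regions in both. Chd6 went from 2 regions to 3 and 6. Chd8, a gene linked to autism, went from 4 to 6 and 7 without losing any, and its start region had a 72 h score of 380. Under equal numbers Chd6 had 2, 3 and 3 regions and Chd8 4, 6 and 5, with 1 region lost at 72 h. In the wide-peak setting Chd6 had 2, 1 and 2 regions, so its rise was not seen, and Chd8 had 3, 4 and 4.

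Chd2, linked to childhood epilepsy, and Chd1, which reads a histone mark of active promoters, lost more regions than they gained. Chd2 had 12, 7 and 10 regions, and Chd1 7, 4 and 5. Chd2 also held the member region with the highest 72 h score among those absent from naive cells. It lay inside the gene on chromosome 7 from 73503187 to 73503724, with scores of 260 at 48 h and 383 at 72 h, at or above 98.7% and 99.2% of the peaks of those lists. In the equal-number setting the balance of Chd2 turned at both times, with 6, 7 and 9 regions, 4 gained and 3 lost at 48 h and 5 and 2 at 72 h. Chd1 then had 7, 4 and 2. The Chd1 region at one end of the gene, of 1541 bp on chromosome 17 from 15704281, was in all 3 lists with a 72 h score of 312.

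The genes of the NuRD motor proteins had at most 5 regions each in a list. Chd4, the main one in T cells, had 4, 3 and 4 regions, and a pair of regions in its start window was in all 3 lists. The second of these widened from 100 to 129 and 262 peak bases. Chd3 had 5, 3 and 3, and 2, 3 and 2 in the equal-number setting, which turned its 48 h balance from 0 gained and 2 lost to 1 and 0. Chd5, known from the nervous system, had 1, 0 and 4 regions, and 3 of the 4 at 72 h lay inside the gene with no peak in the other lists. The strongest of these, from 152362272 to 152362543 on chromosome 4, had a score of 122. Under equal numbers Chd5 had 1, 0 and 2 regions. Chd1l, a remodeler recruited by poly(ADP-ribose), had 3, 1 and 3 regions (3, 1 and 1 under equal numbers), and its start region had a 72 h score of 339.

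The regions present throughout were mostly narrower after culture, as over the genome. Of the 95 member regions in all 3 lists, 76 had fewer peak bases at 48 h than in naive cells (80%, with 79.4% of all such regions), and 68 had fewer at 72 h (71.6%, with 67.4%). From 48 h to 72 h, 26 narrowed (27.4%, with 28.8%). The median ratio of peak bases to naive cells was 0.723 at 48 h and 0.87 at 72 h for the members, and 0.755 and 0.883 for all regions in all 3 lists. In the start windows the 48 h ratio had a median of 0.815 over 29 regions, and elsewhere 0.656 over 66. The largest ratios at 72 h were 2.62 at Chd4 and 2.11 at Chd9, and the smallest was 0.205, for a region of Arid1b that went from 667 to 177 and 137 peak bases.

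**Figure D5:**
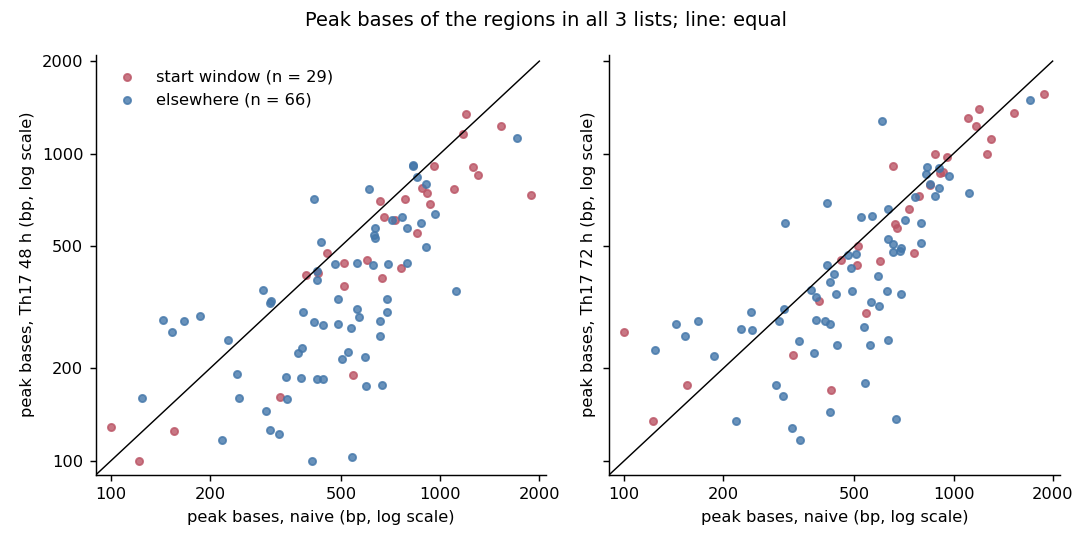
Peak bases in naive cells (x axis) and at 48 h or 72 h (y axis), both in bp on log scales, for the 95 member regions in all 3 lists, coloured by whether they lie in a start window (29) or elsewhere (66). At 48 h 76 points lie below the line of equal width, and at 72 h 68 do.

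For 26 of the 30 members with a 72 h score, the region with the highest such score was in all 3 lists. The share over all genes was not counted, and regions in all 3 lists had the highest median 72 h score over all regions too. The exceptions were Arid1b, Arid5a and Chd2, whose highest region was absent from naive cells, and Chd5, whose highest was at 72 h only. For 12 members the highest-scoring region lay in the start window, for 8 elsewhere inside the gene and for 10 in the flank. The shares of these positions over all genes were not counted either. Of the flank regions, those at Smarcb1 (score 335, near Derl3), Chd4 (154, near Nop2), Smarcc2 (197, near Myl6b), Smarcd3 (171, near Chpf2) and Arid3a (177, near Wdr18) lay within 1 kb of the start of another gene. The member regions in all 3 lists had a median 72 h score of 135, those at 48 h and 72 h 102.5, those at 72 h only 54 and those back at 72 h after no peak at 48 h 45. The corresponding medians over all regions were 133, 91, 51 and 52.

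Other subunits of these complexes, together with other ATPases, made a list of 53 genes outside the symbol rule, counted in the same way. They had 239 regions in naive cells, 158 at 48 h and 225 at 72 h. At 48 h 30 were gained and 111 lost, with more lost than gained at 32 of the 53 genes and the reverse at 6. Over all genes with a region the shares were 49.1% and 19.5%. At 72 h 79 were gained and 93 lost, with more lost at 14 of the 53 genes and more gained at 20. Over all genes with a region the shares were 36.6% and 33.9%, and the symbol-rule members had 15 and 10 of 30. The share of changed regions that were lost was 78.7% and 54.1%, against 75.5% and 59.1% at the symbol-rule members and 66.6% and 50% over all regions. These values are for all deposited peaks. The 53 genes were not counted on their own in the equal-number or wide-peak setting. By group, the counts at 72 h were 28 gained and 31 lost for 18 SWI/SNF partners and 17 and 17 for 12 NuRD partners. They were 13 and 31 for 9 ISWI partners and 21 and 14 for 14 INO80-type and other ATPases. Among the most unequal genes were Baz2b, an ISWI partner, with 6 gained and 17 lost at 72 h, Bcl11b, a SWI/SNF partner and T cell factor, with 3 and 9, and Bicra, a SWI/SNF subunit, with 2 and 8, while the repair ATPase gene Ercc6 had 5 and 1.

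The naive list held 53259 peaks, the 48 h list 40624 and the 72 h list 53926, and the members held 0.46%, 0.418% and 0.417% of the lists' peak bases. T cell markers (Cd3e, Cd3d, Cd3g, Cd4, Cd5, Cd28, Thy1 and Lck) had regions at all 8 genes in every list, 47, 35 and 44 in all. Of 5 myeloid markers, Csf1r, Lyz2 and Adgre1 had 0 regions in every list, and Itgam and Spi1 together had 13 in naive cells and 3 at each time. The 5 B cell markers had 9, 7 and 10 regions, with Ms4a1 at 0, and the 5 CD8 and NK cell markers 9, 9 and 8, with Ncr1 at 0. The part of other cells in the members' lost regions was not tested. The 2 libraries of a condition cannot be compared here, so differences between lists include any difference in depth or calling.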

How the data were processed

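The study has 6 ATAC-seq libraries in 3 conditions, 2 per condition, and 1 deposited peak list per condition was used. Per the submitters' processing notes, the tools were MACS2 2.2.6, Bowtie2 2.3.4.1, deepTools and SAMtools 1.9, with builds mm10 and GRCm38. Nothing in the sources used here gives the calling threshold, the filters, any Tn5 shift or whether a list rests on 1 library or pooled reads. The deposited lists give a chromosome, start, end and name, and the 48 h and 72 h lists a whole-number score, the authors' own, whose scale no header states. Read depth is unknown. A single line of the naive list, 1 without values, was dropped.

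Peaks were taken as BED intervals, with starts counted from 0, and merged in Python 3.11.15 with numpy 2.4.6. Regions were assigned to genes of RefSeq GRCm38.p6 with 10 kb flanks, and intervals came from scipy 1.17.1. The merging was tested on simulated lists. The members and lists were chosen with earlier results of these data known. All members may be named. Single regions were eligible by highest score or, if naive only, greatest width, and the other regions described were chosen after their values were seen. Up to 4 partner genes per comparison with the most unequal counts were eligible. Alternatives covered flanks, overlap, peak width, peak number, score, start window and the largest member.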

Additional observations from a re-analysis of the deposited data

How the results depend on the processing

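Of 72 totals recomputed under other settings, 54 stayed within 1.5 times the count or, for the share of changed regions that were lost, within its 95% interval (68.1 to 81.8% from naive cells to 48 h, 51.4 to 66.4% to 72 h, and 15.7 to 33.4% between 48 h and 72 h). In these totals losses or gains exceeded the other in the same direction throughout. Single members did turn: 4, 2 and 3 in the equal-number setting and 5, 2 and 1 in the wide-peak setting, in the order of these comparisons. With flanks of 50 kb, 68 regions were gained and 201 lost from naive cells to 48 h, 125 and 164 to 72 h, and 130 and 36 between 48 h and 72 h. In the wide-peak setting the counts were 19 and 70, 35 and 54, and 41 and 9, with 78.7%, 60.7% and 18% lost, against 67%, 49.5% and 21.1% over all regions. In the equal-number setting (40624 peaks per list), 63% of the changed regions were lost from naive cells to 48 h, in place of 75.5%, and 53.2% over all regions. Between 48 h and 72 h the counts were then 42 gained and 35 lost, with 45.5% lost in place of 23.7%, and 45.2% over all regions. With peaks at or above the median score, they were 41 and 8. These settings keep other numbers of peaks or regions by construction. Without regions near the start of another gene, a setting chosen after seeing the data, the shares lost were 75.5%, 59.4% and 23.7%. Members with a start-window peak numbered 22 to 25 in all lists with the median width and 24 to 25 with a window of 250 bp. Leaving out a replicate could not be run, since each condition has 1 list. No paired analysis was possible because the lists hold no values per replicate. Scores compare peaks within a list only, and depth cannot be judged from the lists.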
